A study of Mus musculus with 7 samples.

Results

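The genes described here are 9 genes of insulin-like growth factor (IGF) signalling, Igf1, Igf1r, Insr and Igfbp2 to Igfbp7, taken by their symbols from the 55484 genes of a table of RNA-seq counts. All 9 were among the 16580 genes with enough counts to be tested. IGF1 is a secreted growth factor that binds the IGF1 receptor, a tyrosine kinase of the cell surface that signals through insulin receptor substrates to the PI3K and AKT kinases. The insulin receptor is its close relative and can form hybrid receptors with it. The IGF binding proteins (IGFBPs) are secreted proteins that hold IGFs outside the cell, prolong their life and limit or deliver them to the receptor, and fibroblasts are a known source of both IGF1 and several IGFBPs.

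The table held 4 libraries of mouse embryonic fibroblasts (MEFs), which are connective tissue cells grown from embryos, and 3 libraries of mouse embryonic stem cells (mESCs), which are pluripotent cells. The study gives a C57/Bl6 background for its MEFs and mESCs, in the methods of its chromatin libraries. No treatment, age or time was given for either cell type. The study used these transcripts, from a data set its laboratory already had, to ask which transcription factors are expressed in each cell type. Its chromatin libraries came from sorted Thy1+ MEFs and Thy1-/Ssea1+/Epcam+ mESCs, but a sort was not stated for the RNA libraries. The extraction text of the RNA labels speaks of young and aged blood stem cells. The count columns carry an unexplained letter, O for MEFs and Y for mESCs, which runs with the cell type. The number that follows the cell type is the same in every column name. The study's legends call its plotted RNA data biological replicates with n = 3, whereas 4 MEF libraries were analysed here. Neither the legends nor the labels say which libraries came from separate cultures or animals. The p-values therefore measure the spread between these libraries, which may be technical in part.

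Libraries are named by their total counts. The MEF libraries held 11441278, 7312679, 9176467 and 6528643 counts and the mESC libraries 8193825, 8057985 and 7462710, and values are given in that order throughout. Levels are given as CPM, counts scaled to a common library size with edgeR's TMM factors. This scaling shifted each log2 fold change by -0.28 from its value under library size alone and left the median of all genes tested at 0.04. In mESCs, 11 of 11 pluripotency markers were higher and 14 of 14 fibroblast markers lower (edgeR, adjusted p under 0.05). Over all genes tested, 22.8% were higher and 25.0% lower. The marker lists were chosen with earlier results of these data known, so these counts describe the libraries and do not test the labels. Summed fibroblast markers ran from 26198 to 42576 CPM in MEFs and from 379 to 432 CPM in mESCs, and summed pluripotency markers from 44.2 to 48.4 CPM in MEFs and from 3449 to 3722 CPM in mESCs. Of 9 blood and macrophage markers, 6 were tested, with 1 higher and 2 lower in mESCs, and the markers were at unlike levels. The higher was Cd68, with 26 to 49 counts in MEFs and 41 to 131 in mESCs. The lower were Cd34 and Hba-a1, the latter with 2 to 37 counts in MEFs and 0 to 6 in mESCs. Ptprc, the pan-leukocyte marker, reached at most 17 counts in any library, and Adgre1 at most 10. Cd34, which blood stem cells share with fibroblasts and vessels, had 169 to 289 counts in MEFs and 0 to 9 in mESCs and was called lower. Csf1r, a macrophage receptor, had 42 to 236 counts in MEFs and 80 to 121 in mESCs and was not called. The part of blood cells in the results was not tested. Endothelial markers (4 genes, 3 tested) held 1 call, Pecam1, higher in mESCs with 18 to 24 counts in MEFs and 203 to 337 in mESCs. Kdr and Tek, with differences of -1.70 and -0.39, were not called. Cdh5 was not tested, with 0 to 20 counts in MEFs and 0 to 3 in mESCs. Of 6 markers of primitive endoderm and early differentiation, only Gata6 was tested, and it was not called. Among the untested, Sox17 and Foxa2 had 0 counts in every MEF library, and 9 to 51 and 4 to 21 in mESCs. Gata4 and Sox7 had at most 5 and 4 counts in MEFs, and 7 to 19 and 6 to 35 in mESCs. T had at most 3 counts in any library. The part of differentiating cells in the mESC libraries was not tested.

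Promoter sequences of the neighbouring pair Igfbp2 and Igfbp5, of Igfbp4 and of Igf1r are shown because these genes differed between the cell types in direction or in size. Each is a window of 300 bases, mostly upstream of a RefSeq start site, on GRCm38.p6 and written 5′ to 3′ on the gene's own strand. The windows lie at chr1:72824230-72824529 (plus strand, the first of 2 windows of Igfbp2), chr1:72874816-72875115 (minus strand, Igfbp5), chr11:99040994-99041293 (plus strand, Igfbp4) and chr7:67952007-67952306 (plus strand, Igf1r). Capitals mark matches, on either strand, to the TATA box letters TATAAA. They also mark those to the GC box, which was searched as GGGCGG.
Igfbp2: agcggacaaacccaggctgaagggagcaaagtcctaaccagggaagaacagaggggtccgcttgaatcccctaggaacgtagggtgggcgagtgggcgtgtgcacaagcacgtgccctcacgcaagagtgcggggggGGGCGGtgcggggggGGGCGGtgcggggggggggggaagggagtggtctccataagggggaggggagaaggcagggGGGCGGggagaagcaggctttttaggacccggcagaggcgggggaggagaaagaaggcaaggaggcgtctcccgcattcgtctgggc
Igfbp5: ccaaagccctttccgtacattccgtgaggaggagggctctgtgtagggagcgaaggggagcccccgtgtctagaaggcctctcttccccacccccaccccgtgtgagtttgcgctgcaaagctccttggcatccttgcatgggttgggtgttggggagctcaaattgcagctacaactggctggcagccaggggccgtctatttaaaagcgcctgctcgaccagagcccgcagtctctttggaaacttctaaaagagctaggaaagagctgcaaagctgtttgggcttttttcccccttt
Igfbp4: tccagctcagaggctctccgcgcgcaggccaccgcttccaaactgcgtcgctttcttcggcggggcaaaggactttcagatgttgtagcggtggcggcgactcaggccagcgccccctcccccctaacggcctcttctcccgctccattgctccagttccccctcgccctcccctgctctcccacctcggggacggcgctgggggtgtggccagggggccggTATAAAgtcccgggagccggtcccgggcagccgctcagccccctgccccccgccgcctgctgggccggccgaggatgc
Igf1r: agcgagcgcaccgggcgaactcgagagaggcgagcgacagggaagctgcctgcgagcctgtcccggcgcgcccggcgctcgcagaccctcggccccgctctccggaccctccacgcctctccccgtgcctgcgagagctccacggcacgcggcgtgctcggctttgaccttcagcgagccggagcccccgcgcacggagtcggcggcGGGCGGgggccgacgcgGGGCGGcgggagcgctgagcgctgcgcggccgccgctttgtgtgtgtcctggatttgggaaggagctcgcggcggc

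RefSeq windows were found for 8 of the 9 genes, 9 windows in all, and none was found for Insr. TATAAA stood in the windows of Igfbp4 and Igfbp6, once each, and in 13.6% of the 32851 windows of all genes. GGGCGG stood 2 times in the window of Igf1r, 3 times in the first window of Igfbp2 and 4 times in that of Igfbp7, against 35.7% of all windows with at least 1 match. The E-box CACGTG, which is its own reverse complement, was found in the first window of Igfbp2 and in 7.2% of all windows. The Igf1r window held 48 CpG dinucleotides and that of Igfbp3 held 37, while those of Igf1, Igfbp6 and Igfbp5 held 6, 8 and 10, beside a median of 7 over all windows. Igf1r, which differed least among the genes lower in mESCs, and Igf1 and Igfbp5, which differed most, thus had unlike CpG counts, but Igfbp3, Igfbp4 and Igfbp7, with 37, 27 and 33 CpGs, were far lower in mESCs too. These matches are descriptions of letters in the windows, and no factor's binding was measured.

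Of the 9 genes, 7 were lower in mESCs than in MEFs, 1 was higher and 1 did not pass the test (quasi-likelihood test of edgeR, Benjamini-Hochberg adjusted over all genes tested). Over all genes tested, 25.0% were called lower and 22.8% higher. The same 7 genes had every mESC library below every MEF library, which held for 26.2% of all genes tested, and Igfbp2 had every mESC library above every MEF library, which held for 25.9%. The median fitted difference of the 9 genes was -4.91 on the log2 scale, against 0.04 for all genes tested. The genes were chosen with earlier results of these data known, so the counts describe these 9 genes and carry no test of their own. In RNA pooled over many cells, fewer cells of a type and less RNA per cell cannot be told apart.

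**Figure D1:**
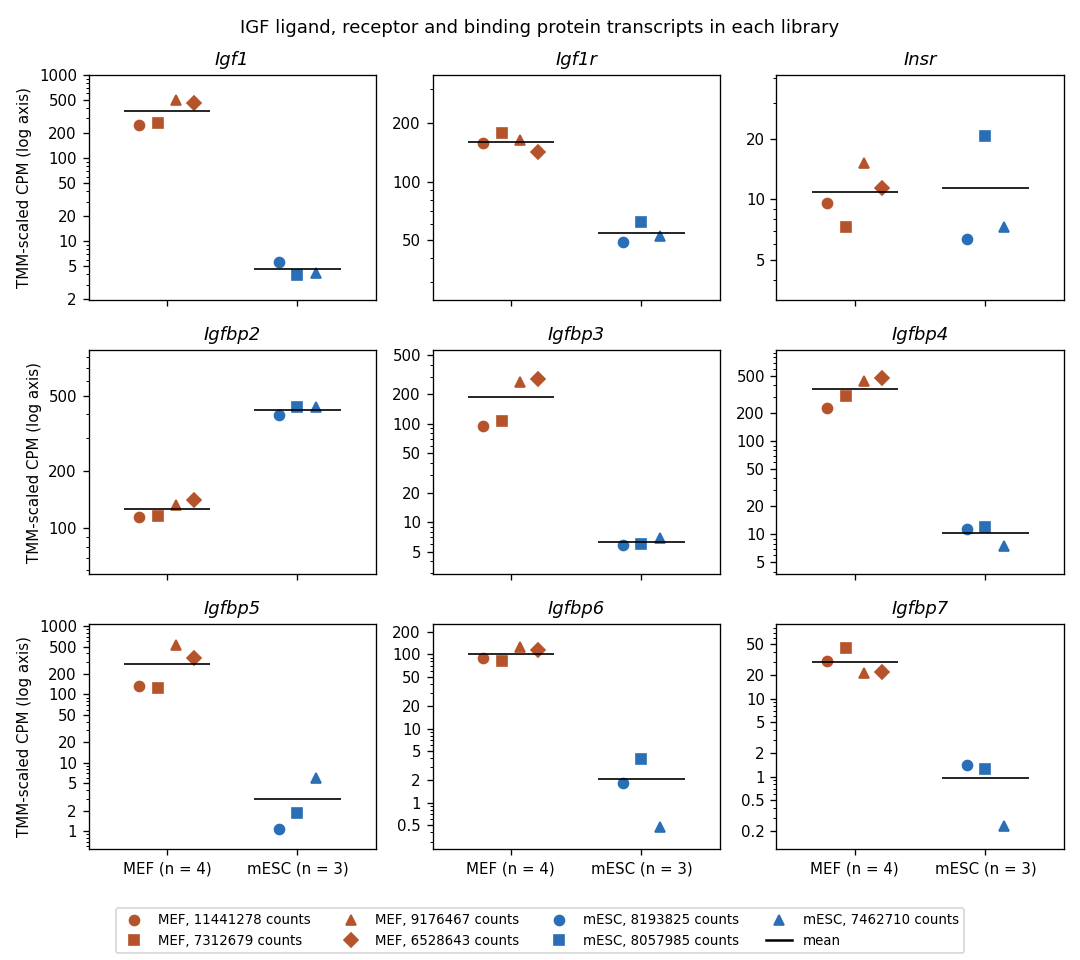
TMM-scaled CPM (log axis, a range of its own in each panel) of the 9 genes in each of the 4 MEF and 3 mESC libraries, 1 point per library, with a line at each mean. Igfbp2 is the gene whose mESC points all lie above the MEF points, the points of Insr overlap, and those of the other 7 genes lie lower in mESCs.

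Igf1, the ligand, was abundant in MEFs and nearly absent from mESCs. The gene (ENSMUSG00000020053.18) lies on the plus strand of chromosome 10, from 87858265 to 87937042 on GRCm38. Its counts were 2567, 1724, 4179 and 2873 in MEFs, and 52, 35 and 35 in mESCs. The lowest MEF library, at 246 CPM, stood far above the highest mESC library, at 5.64 CPM. Mean levels were 367 ± 131 CPM in MEFs (SD, n = 4) and 4.58 ± 0.917 CPM in mESCs (SD, n = 3), and the fitted difference was -6.32 (SE 0.352, edgeR, adjusted p = 2.57e-07), which is 79.7-fold lower in mESCs. An exact two-sided permutation test over the 35 arrangements of 4 and 3 libraries gave p = 0.0286, the smallest that 4 against 3 libraries allow, and it gave this same p for each of the 8 genes that edgeR called.

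The receptors differed less than the ligand. Igf1r, the IGF1 receptor (ENSMUSG00000005533.10, plus strand of chromosome 7, 67952827 to 68233668), had 1649, 1171, 1369 and 898 counts in MEFs and 451, 545 and 443 in mESCs. It was lower in all 3 mESC libraries and still well above the detection floor of 3 counts. Its level was 161 ± 14.8 CPM in MEFs (SD, n = 4) and 54.4 ± 6.77 CPM in mESCs (SD, n = 3), so that mESCs kept 33.8% of the MEF level, with a fitted difference of -1.57 (SE 0.158, edgeR, adjusted p = 1.68e-05). The 95% intervals of the differences of Igf1r (-1.91 to -1.22) and of Igf1 (-7.10 to -5.54) did not overlap.

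Insr, the insulin receptor (ENSMUSG00000005534.10, minus strand of chromosome 8, 3122061 to 3279617), had few counts in both cell types. There were 100, 48, 127 and 72 counts in MEFs, and 59, 182 and 62 in mESCs. The mESC library of 8057985 counts held the highest level of all, 20.7 CPM, and the other mESC libraries, at 6.39 and 7.31 CPM, lay below or level with the lowest MEF library, at 7.32 CPM. No difference passed the test (0.07, SE 0.434, edgeR, adjusted p = 0.908), but its 95% interval ran from -0.89 to 1.03, so a difference of nearly 1 on the log2 scale either way was within the error. Without the library of 8057985 counts the difference was -0.67 and also did not pass (edgeR, adjusted p = 0.186).

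The ratio of Igf1r to Insr counts within a library is free of the scaling between libraries. It was 16.5, 24.4, 10.8 and 12.5 in MEFs and 7.64, 2.99 and 7.15 in mESCs, with every mESC library below every MEF library. On the log2 scale the mean ratio was 3.92 ± 0.515 in MEFs (SD, n = 4) and 2.44 ± 0.750 in mESCs (SD, n = 3), a difference of -1.48 (exact two-sided permutation test, p = 0.0286). Division by exon length changes the ratios but not this difference. The size rested in part on the mESC library of 8057985 counts, without which the difference was -1.05, with the groups still apart (exact permutation p = 0.133, where 0.0667 is the smallest possible).

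**Figure D2:**
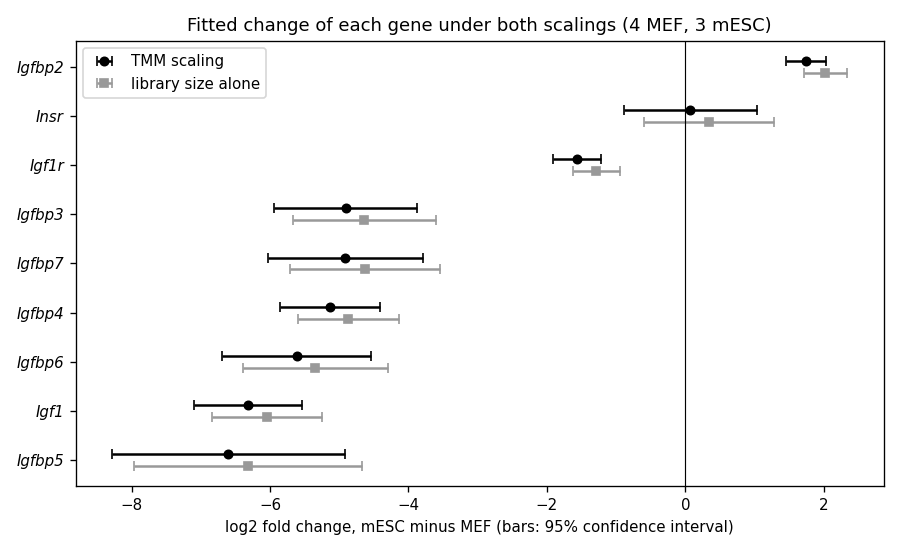
Fitted log2 fold change of each gene, mESC minus MEF, with its 95% confidence interval (bars), under TMM scaling (black) and under scaling by library size alone (grey), from 4 MEF and 3 mESC libraries. The order of the genes is the same under both scalings except that Igfbp3 and Igfbp7, which lie close together, change places, and the interval of Insr alone crosses 0 under both.

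Igfbp2 was higher in mESCs. IGFBP2 is a binding protein that also has an RGD sequence for integrins. The gene (ENSMUSG00000039323.18, plus strand of chromosome 1, 72824503 to 72852474) had 1190, 765, 1100 and 882 counts in MEFs, and 3639, 3809 and 3700 in mESCs. Both groups were tight, from 114 to 140 CPM in MEFs and from 394 to 437 CPM in mESCs. The means of 126 ± 12.5 CPM (SD, n = 4) and 421 ± 23.3 CPM (SD, n = 3) gave a difference of 1.74 (SE 0.132, edgeR, adjusted p = 2.18e-06), which is 3.35-fold higher in mESCs.

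Igfbp5 had the largest fitted difference of the 9 genes. IGFBP5 binds the extracellular matrix and is made by fibroblasts, muscle and bone. Its gene (ENSMUSG00000026185.8, minus strand of chromosome 1, 72857932 to 72874884) had 1382, 817, 4413 and 2186 counts in MEFs, and 10, 16 and 50 in mESCs. The MEF libraries ranged over 4.25-fold, from 125 to 529 CPM, and the mESC libraries over 5.44-fold, from 1.08 to 5.90 CPM, with a wide gap between the cell types. The fitted difference of -6.60 (SE 0.757, edgeR, adjusted p = 4.32e-05) had the widest interval of the 9, from -8.28 to -4.92, and was -7.60 without the mESC library of 7462710 counts, which held the 50 counts.

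Igfbp2 and Igfbp5 are neighbours. The plus-strand Igfbp2 and the minus-strand Igfbp5 end 5457 bases apart, with 0 annotated genes between them, and they differed in opposite directions between the cell types. The other neighbouring pair of the family is Igfbp1 and Igfbp3 on chromosome 11, 3539 bases apart with 0 genes between them. Igfbp1, which is mainly a liver gene, had 0 counts in all 7 libraries, while Igfbp3 was well detected.

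Igfbp3 encodes the main IGF carrier of blood. The gene (ENSMUSG00000020427.11, minus strand of chromosome 11, 7206086 to 7213923) had 982, 698, 2245 and 1792 counts in MEFs, and 54, 53 and 59 in mESCs. The MEF libraries fell into a lower pair at 94.2 and 106 CPM and a higher pair at 269 and 285 CPM, and the mESC libraries were close together, from 5.85 to 6.96 CPM. The difference was -4.91 (SE 0.464, edgeR, adjusted p = 1.09e-05), 30.0-fold lower in mESCs.

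Igfbp4 was 35.2-fold lower in mESCs. IGFBP4 holds back IGFs until the protease pappalysin cuts it. The gene (ENSMUSG00000017493.12, plus strand of chromosome 11, 99041244 to 99054392) had 2411, 1996, 3682 and 3045 counts in MEFs, and 106, 107 and 63 in mESCs. All MEF libraries lay above 231 CPM and all mESC libraries below 12.2 CPM. The means were 365 ± 118 CPM (SD, n = 4) and 10.4 ± 2.56 CPM (SD, n = 3), with a difference of -5.14 (SE 0.327, edgeR, adjusted p = 6.22e-07).

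Igfbp6, whose protein binds IGF2 in preference to IGF1, had 918, 528, 1052 and 715 counts in MEFs, and 17, 34 and 4 in mESCs (ENSMUSG00000023046.6, plus strand of chromosome 15, 102144362 to 102149511). The MEF libraries were within 1.57-fold of each other, and the mESC libraries ran from 0.472 to 3.86 CPM, an 8.19-fold range at few counts. The difference was -5.62 (SE 0.487, edgeR, adjusted p = 5.71e-06). It was -6.42 without the mESC library of 8057985 counts and -5.16 without that of 7462710 counts.

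Igfbp7, whose protein binds IGFs only weakly and is also found in vessel walls, had the lowest mean MEF level of the IGFBPs, by counts and per kb of exon. It had 320, 294, 178 and 140 counts in MEFs, and 13, 11 and 2 in mESCs, so that the last library was under the floor of 3 counts (ENSMUSG00000036256.13, minus strand of chromosome 5, 77349240 to 77408041). Its MEF levels were 30.7, 44.8, 21.3 and 22.3 CPM, with the libraries that were low for Igfbp3 being high for Igfbp7. The difference was -4.91 (SE 0.504, edgeR, adjusted p = 1.92e-05). Its exons share 85 bases, 7.03% of its exonic length, with Polr2b on the opposite strand. The counting was not stated to use strand, so its counts may hold reads of that gene. Per the labels, reads came from the 3′ end of transcripts, so the part of its counts open to this may differ from 7.03%.

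Few sequences of these genes are shared with others. Among the 50-base sequences of their transcripts, 2.99% of those of Igfbp7 were also found elsewhere (most often in Polr2b), 1.72% of those of Igfbp4, 0.225% of those of Insr and 0 of those of the other 6 genes.

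The makeup of the IGFBP transcripts turned from mixed in MEFs to nearly uniform in mESCs. Igfbp2 held 16.5%, 15.0%, 8.68% and 10.1% of the counts of the 6 IGFBPs in the MEF libraries, and 94.8%, 94.5% and 95.4% in the mESC libraries. Igfbp4 held the largest mean share in MEFs, 34.1% ± 4.15 (SD, n = 4), and 2.35% ± 0.628 in mESCs (SD, n = 3). The mean share of Igfbp5 went from 23.7% in MEFs to 0.649% in mESCs, that of Igfbp3 from 16.4% to 1.41%, and that of Igfbp6 from 9.89% to 0.463%. Each of these 5 shares differed at the smallest p the design allows (exact two-sided permutation test, p = 0.0286, adjusted over the 6 shares 0.0343). The share of Igfbp7, 3.30% and 0.221%, missed the threshold (exact permutation p = 0.0857, also after adjustment), although each mESC library lay below each MEF library.

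Per kb of exon, on which levels of different genes can be compared where reads cover whole transcripts, the share of Igfbp2 was 18.9% in MEFs and 96.8% in mESCs, and Igfbp6 rather than Igfbp4 had the largest mean share in MEFs, 25.0% against 21.9%. The labels describe reads from the 3′ end of transcripts with molecular identifiers, so the counts were kept as the main scale. A share falls when another rises. Among the 5 IGFBPs without Igfbp2, no share differed at the threshold (exact permutation tests, adjusted p from 0.286 to 0.914), and the sign of the difference turned for Igfbp3, Igfbp4 and Igfbp7.

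The summed level of the 6 IGFBPs, a measure chosen after its values were seen, was 691, 777, 1518 and 1393 CPM in MEFs, and 416, 458 and 458 CPM in mESCs. All mESC libraries were lower, but the difference in means missed the threshold (1095 ± 421 CPM, n = 4, against 444 ± 24.0 CPM, n = 3, SD, exact permutation p = 0.0857). Without Igfbp2 the sum was 969 ± 410 CPM in MEFs (SD, n = 4) and 22.6 ± 2.20 CPM in mESCs (SD, n = 3, exact permutation p = 0.0286).

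**Figure D3:**
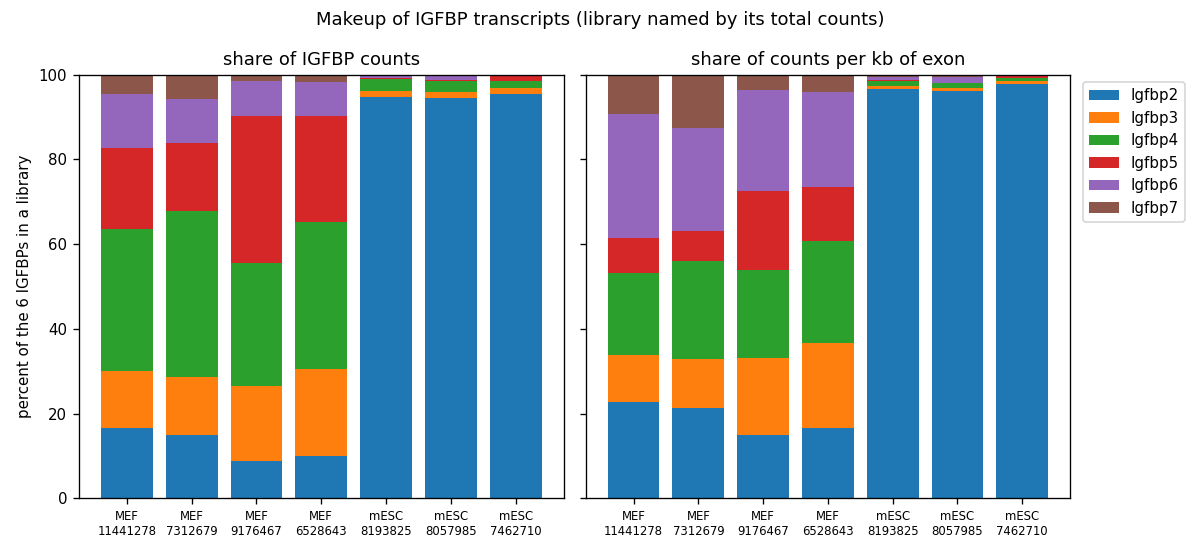
Share of each of the 6 IGFBPs in the summed IGFBP counts (left) and in the counts per kb of exon (right) of each library, in percent, with libraries named by cell type and total counts. Igfbp2 fills 94.5% to 95.4% of each mESC bar on the left and 8.68% to 16.5% of each MEF bar.

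The spread within MEFs was shared by most of these genes, a pattern noticed after the values were seen. The MEF libraries of 9176467 and 6528643 counts were both above the other MEF libraries for 7 of the 9 genes (Igf1, Insr and Igfbp2 to Igfbp6), both below them for Igfbp7, and mixed for Igf1r. Over all genes tested, both were higher for 22.6% and both lower for 21.7%. The ratio of the mean CPM of these libraries to that of the others was 3.41 for Igfbp5, 2.76 for Igfbp3, 1.88 for Igf1, 1.73 for Igfbp4 and 0.577 for Igfbp7. Of 14 fibroblast markers, 10 were higher in both libraries, with ratios from 1.14 for Pdgfrb to 2.09 for Col3a1, 2.66 for Lum and 3.67 for Dcn. The other markers did not move with them. Thy1, Vim and S100a4 were lower in both libraries (0.904, 0.817 and 0.695), and Col1a1 was mixed.

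The same MEF libraries held 90.6 and 88.4 CPM of the summed Y-linked genes Ddx3y, Eif2s3y and Kdm5d, against 2.11 and 0.610 CPM in the other MEF libraries. Among mESCs, the library of 7462710 counts held 35.9 CPM of these genes and the others 1.73 and 1.82 CPM. This mESC library also had the highest Igfbp2, Igfbp3 and Igfbp5 and the lowest Igfbp4, Igfbp6 and Igfbp7 level of the mESC libraries. The part of these differences between libraries in the results was not tested. All tests treated each library as a separate unit and took no account of these likenesses and differences among libraries of a cell type. Each of the 8 calls held with each of the 7 libraries left out in turn (edgeR, adjusted p under 0.05).

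**Figure D4:**
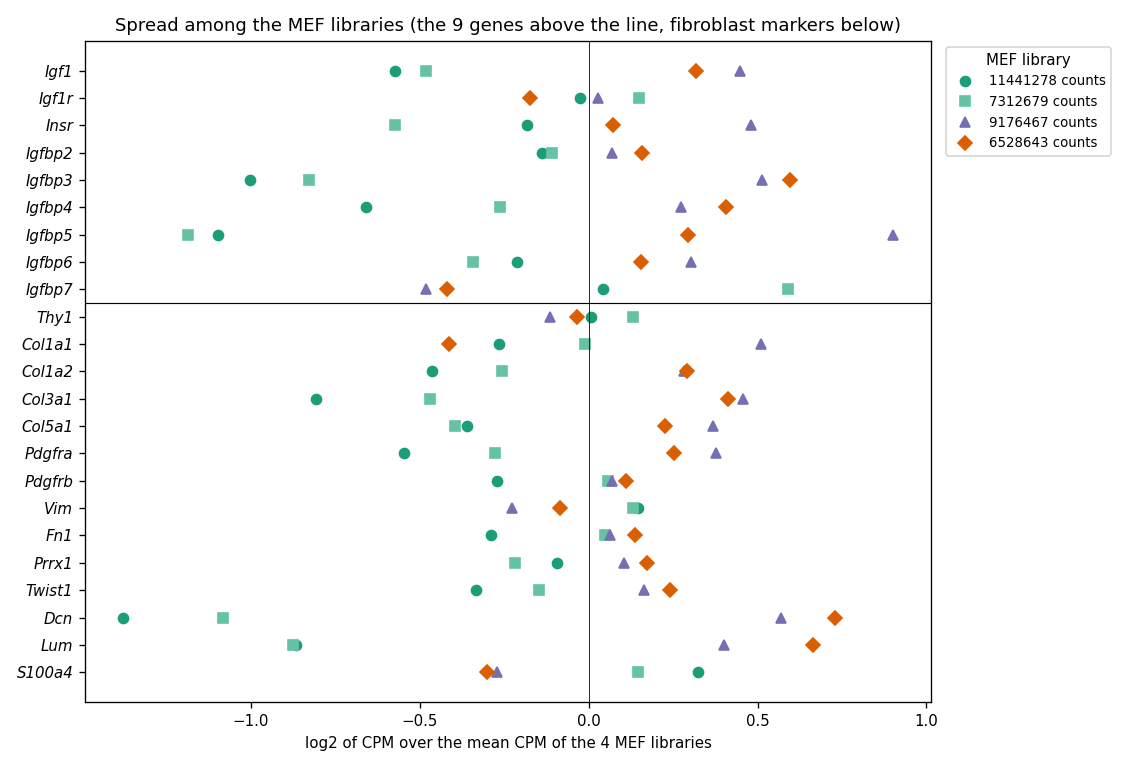
Level of each gene in the 4 MEF libraries as the log2 of its CPM over the mean of those libraries, 1 symbol per library, for the 9 genes (above the line) and 14 fibroblast markers (below it). The libraries of 9176467 and 6528643 counts lie to the right of the others for 7 of the 9 genes and 10 of the 14 markers.

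The levels left in mESCs were set beside those of the fibroblast markers. The mESC mean was 1.04% (Igfbp5) to 33.8% (Igf1r) of the MEF mean for the 7 genes lower in mESCs, with a median of 2.84%, and 0.452% (Col1a2) to 41.0% (Fn1) for the 14 fibroblast markers, with a median of 1.45%. The ranges overlapped, and the difference between the lists was not tested. The part of MEFs left in the mESC cultures, or of RNA from them, in the low mESC counts was not tested either.

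Over all 7 libraries, the genes whose centred log2CPM profiles lay nearest to Igf1 were Kcne4, Mfap2 and Col6a2 (Euclidean distances 0.512, 0.527 and 0.529). Those nearest to Igf1r were Nudt3, Calr and Snx1 (0.222, 0.236 and 0.269), and those nearest to Igfbp5 were Mfap4, Fbn2 and C1qtnf7 (1.15, 1.53 and 1.58). The nearest profile to Igfbp5 was thus farther away than the third nearest to Igf1. These distances describe 7 libraries, are set mainly by the difference between the cell types, and carry no test.

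Outside the 9 genes, 59 genes of the pathway were followed in 6 lists, and 54 were tested. Of these, 10 were higher and 27 lower in mESCs and 17 did not pass the threshold, with a median difference of -0.84. The shares over all genes tested were 22.8% higher and 25.0% lower, for these genes and for each list below. Of the 8 other ligands, receptors and carriers, 5 were tested, with 3 lower and 2 higher. Igf2r, the receptor that takes up and degrades IGF2, was lower in mESCs (732 ± 198 against 82.5 ± 39.4 CPM, SD, difference -3.15, edgeR, adjusted p = 3.77e-05). Igf2, the second IGF ligand, had 229, 138, 555 and 185 counts in MEFs, and 6, 8 and 22 in mESCs (difference -4.65, edgeR, adjusted p = 9.75e-05), but 62.8% of its exonic bases are shared with Gm49394 on the same strand, so its value is uncertain. Ins1, an insulin gene, was lower in mESCs with a difference of -2.29. Its counts were 141 to 396 in MEFs and 26 to 87 in mESCs, and the source of these reads was not tested. Ins2 and Insrr, at up to 22 and 10 counts in a library, were not tested. Igfals, a partner of IGFBP3 in blood, and Igfbpl1, an IGFBP-like gene, were higher in mESCs (4.57 and 4.13) at low levels, with 16, 40 and 27 counts of Igfals in mESCs and 4 counts in the MEF libraries together.

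All 7 genes of the list of IGFBP proteases and their regulators were lower in mESCs, beside 25.0% of all genes tested. Their median difference was -5.35. Pappa and Pappa2, which encode pappalysins, proteases that cut IGFBPs, had differences of -6.97 (SE 0.253) and -6.26 (SE 0.506). Pappa had 732, 474, 698 and 526 counts in MEFs, and 6, 4 and 6 in mESCs. Stc2, a stanniocalcin that inhibits pappalysin, and Htra1, a serine protease, had the smallest differences of the list, -1.94 and -1.55.

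Of 13 tested receptor adaptors and attenuators, 3 were higher, 4 lower and 6 not past the threshold, with a median difference of -0.34, beside 22.8% higher and 25.0% lower over all genes tested, so these counts are near the background. Grb10, an adaptor that dampens signalling from both receptors, was lower in mESCs (mean 944 against 36.4 CPM, difference -4.69, SE 0.417, edgeR, adjusted p = 6.89e-06). Irs1, an insulin receptor substrate, was also lower (-2.65), with 30.9% of its exonic bases shared with Gm9747 on the opposite strand. Socs2 and Socs3, suppressors of cytokine signalling, were higher (2.70 and 3.27).

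Downstream, 4 of 22 tested genes of the PI3K, AKT, mTORC1 and FOXO list were higher, 8 lower and 10 not past the threshold, with a median difference of -0.27, beside the same 22.8% and 25.0% over all genes tested. Akt1 (-3.23) and Akt2 (-1.68), the kinases downstream of PI3K, were lower, while Pik3cb, a catalytic subunit of PI3K, and Foxo1, a transcription factor that AKT holds out of the nucleus, were higher (2.18 and 1.59). All 4 genes of the growth hormone axis, which controls Igf1 in many tissues, were lower, beside 25.0% of all genes tested. They ran from Ghr, the growth hormone receptor (-4.02), through Jak2 (-2.50) and Stat5b (-1.84) to Stat5a (-1.12, edgeR, adjusted p = 0.0336). The call of Stat5a was lost under library size alone. Of the genes for IGF2 mRNA-binding proteins, Igf2bp1 was higher (1.41), Igf2bp2 lower (-0.74) and Igf2bp3 not past the threshold.

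**Figure D5:**
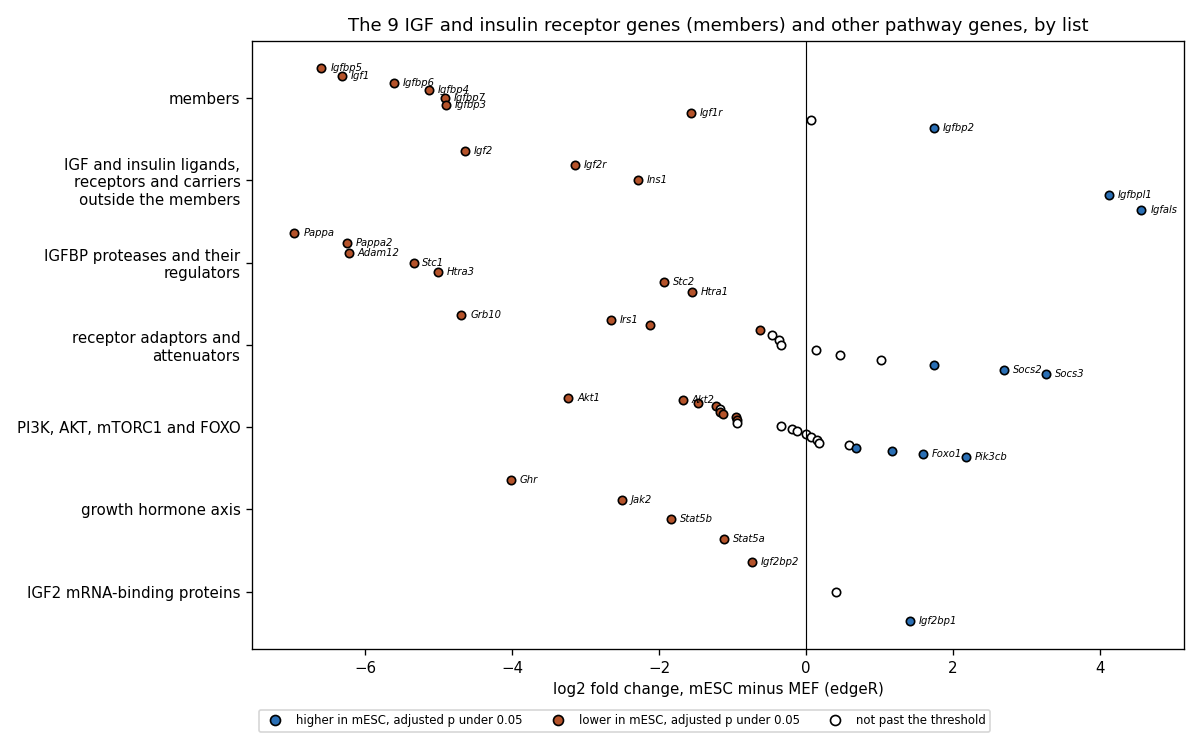
Fitted log2 fold change, mESC minus MEF, of each tested gene of the 9 (members) and of the 6 pathway lists, 1 point per gene, coloured by direction where the adjusted p was under 0.05 and open where it was not. All 7 protease genes and all 4 growth hormone axis genes lie to the left of 0, and the adaptor and PI3K lists lie on both sides.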

How the data were processed

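RNA-seq counts per gene were analysed for 4 MEF libraries and 3 mESC libraries. Per the labels, libraries were biased to the 3′ end and carried molecular identifiers. The authors aligned reads to mm10 with STAR (2.4.2a in the submitters' processing notes, another version in the study's methods), collapsed identifiers with Je, used featureCounts for uniquely mapped exonic reads, and deposited whole-number counts without normalization. The annotation release and strand setting are not given in the sources used here. Column names give the cell type and an unexplained letter, O for MEFs and Y for mESCs, and no stated sample number, so libraries were matched to groups only.

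The cell types were compared in R 4.3.3 with edgeR 4.0.16 and limma 3.58.1, by TMM scaling, filterByExpr and the quasi-likelihood test with all 7 libraries and no covariates. Benjamini-Hochberg adjustment ran over 16580 genes, with a threshold of 0.05. Ratios (pseudocount 0.5) and shares were compared by exact two-sided permutation tests over 35 arrangements of the libraries. Profiles used log2CPM with a prior count of 2. DESeq2 1.42.0 was an alternative, beside other scalings, filters of 1 and 10 counts, prior counts, pseudocounts, a test against a fold change of 2, per-length values, shares without Igfbp2 and each library left out. The code was tested on simulated data, where changed genes with low counts were often missed, and the pass criterion was replaced after the initial one, on the number of genes recovered, was not met. Library totals ran from 6528643 to 11441278 counts, and a floor of 3 counts equals 0.288 to 0.477 CPM, counting error only. Coordinates are from GENCODE on GRCm38, and promoters from RefSeq. Rows with symbols in the form of dates (26 rows, 0.249% of counts) stayed in the totals.

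The 9 genes and all lists were chosen with earlier results of these data known. All 9 are named, with, from each pathway list, the called genes with the 2 most positive and 2 most negative differences, any gene of the first list above the floor, and the 3 nearest profiles of Igf1, Igf1r and the most changed gene. The summed IGFBP level, the order of MEF libraries, the Y-linked genes, neighbour distances, percentages of the MEF level, and the promoters and motifs shown were chosen after values were seen.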

Additional observations from a re-analysis of the deposited data

Results flagged for a closer look

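Among 41 sets of values over a group's libraries, 2 held a library far from the other 3, where chance gives about 2.05. Igfals was at 0.384 CPM (4 counts) in the MEF library of 11441278 counts and at 0 in the other MEF libraries. Ins2 was at 3.35 CPM (22 counts) in the MEF library of 7312679 counts and between 0.240 and 0.576 CPM in the others. Neither is among the 9 genes, and both rest on few counts.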

How the results depend on the processing

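The counts of 7 lower and 1 higher gene among the 9 were the same under every alternative run, and of the 117 fitted differences of these genes under the alternatives, 115 kept their sign and their side of the threshold. The exceptions were both of Insr, which never passed: -0.08 without the MEF library of 7312679 counts and -0.67 without the mESC library of 8057985 counts, in a range from -0.67 to 0.36 with each library left out. Without Igfbp2 in the sum, the difference in share (percentage points) turned to 9.39 for Igfbp3, 6.44 for Igfbp4 and 0.345 for Igfbp7, and no longer passed for Igfbp5 (-13.5) and Igfbp6 (-2.69), since shares then add up over 5 genes. Of 299 fitted differences of named pathway genes, 291 kept their call and 8 were no longer called, 5 of them of Stat5a. Against a fold change of 2, 2 adaptors stayed lower, 1 gene of the PI3K list higher and 2 lower, and 0 IGF2 mRNA-binding protein genes lower. By library size alone, 2 IGF2 mRNA-binding protein genes were higher, and over all genes tested 5180 were higher and 3345 lower, in place of 3785 and 4153. No paired analysis was possible because the column names carry no stated sample numbers. With a library left out, the permutation tests cannot pass (smallest p 0.1 or 0.0667), so the ratio and shares were then compared by size only, and the ratio ran from -1.72 to -1.05. Without a filter edgeR gave far smaller p-values, and the cause was not tested. Counts were few for Insr, and for Igfbp5 to Igfbp7 in mESCs, from 2 (Igfbp7) to 182 (Insr) in a library. In mESCs, Igf1 (35 to 52 counts), Igfbp3 (53 to 59) and Igfbp4 (63 to 107) lay in this range too.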
